A study of Mus musculus with 7 samples.

Results

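The globin genes and the genes *Alas2*, *Klf1* and *Epor* are used by red blood cells. They were read here in the posterior second heart field (pSHF) of mouse embryos to describe how much blood each tissue pool carried. Whether other cells of the tissue also gave *Epor* signal was not tested. The members were every array probe named for *Hba-x*, *Hbb-bh1*, *Hbb-y*, *Hba-a1*, *Hbb-b1*, *Hbb-b2*, *Alas2*, *Klf1* or *Epor*. Of these 9 genes, 8 had a probe and *Hbb-b2* had none, which left 12 probes among 41174 on the array, where 21475 genes were named. The rule used gene names only, and all 12 probes were well above background on all 7 arrays.

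The study compared total RNA from E9.5 embryos without *Shh*, the Sonic hedgehog ligand, with RNA from wild-type embryos of the same crosses. The 4 *Shh*-/- pools (1, 2, 3 and 4) and 3 *Shh*+/+ pools (1, 3 and 4) came from matings of heterozygous parents on a mixed C56B/6 (the labels' spelling) and CD-1 background, with superovulated dams. Each pool joined tissue microdissected from several genotyped embryos, and each was labelled with Cy3 and read on 1 Agilent array. The dissected tissue kept the attached foregut. The allele is a germline null, so the loss of *Shh* was not limited to the heart field. No label gives the number of embryos in a pool or states that the tissue was perfused or freed of blood, and the p-values measure the spread between these pools.

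At this stage blood is made mostly by the primitive wave, in which nucleated erythroblasts leave the yolk sac and circulate through every vessel of the embryo. Haemoglobin joins alpha-like and beta-like globin chains to heme. Primitive cells use the embryonic zeta (*Hba-x*), epsilon-y (*Hbb-y*) and beta-h1 (*Hbb-bh1*) chains beside the alpha chain *Hba-a1*, whereas *Hbb-b1* is an adult beta chain used mainly by definitive cells. *Alas2* makes the first intermediate of heme in red cells, *Epor* is the receptor of erythropoietin, and *Klf1* is a zinc finger factor that drives adult beta globin and many red cell genes.

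The globin probes are shown first because their letters decide which of several related transcripts is read. Capitals mark bases that 2 probes of the same gene share.

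Hba-x: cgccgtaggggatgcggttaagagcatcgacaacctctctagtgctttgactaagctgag
Hbb-y: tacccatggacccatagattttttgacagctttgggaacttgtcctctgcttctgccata
Hbb-bh1 probe 1: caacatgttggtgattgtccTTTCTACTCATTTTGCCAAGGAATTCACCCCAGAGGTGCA
Hbb-bh1 probe 2: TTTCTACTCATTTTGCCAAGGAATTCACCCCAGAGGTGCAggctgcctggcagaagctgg
Hba-a1: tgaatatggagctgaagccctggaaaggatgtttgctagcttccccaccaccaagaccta
Hbb-b1 probe 1: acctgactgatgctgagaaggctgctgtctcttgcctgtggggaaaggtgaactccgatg
Hbb-b1 probe 2: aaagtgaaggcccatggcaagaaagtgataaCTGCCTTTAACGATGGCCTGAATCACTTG
Hbb-b1 probe 3: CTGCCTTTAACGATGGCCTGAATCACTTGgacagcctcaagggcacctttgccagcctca

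Each probe had 60 bases. The files place them on mm9, and no mm9 gene model was used here. The *Hba-x* probe lay at chr11:32177668-32177727 and the *Hba-a1* probe at chr11:32183775-32183956, both on the plus strand, and the 60 bases of *Hba-a1* were spread over 182 genomic bases. On the minus strand of chromosome 7, the *Hbb-y* probe lay at chr7:111001412-111001471 and the *Hbb-bh1* probes at chr7:110990327-110990386 and chr7:110990307-110990366. The 4 *Hbb-b1* probes lay at chr7:110962317-110962376, chr7:110962031-110962090, chr7:110962000-110962059 and, for probe 4, chr7:110961112-110961171.

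The *Hbb-bh1* probes had 40 bases in common and *Hbb-b1* probes 2 and 3 had 29, so neither pair is independent evidence. Probes of different globin genes among those printed shared no run longer than 7 bases. The transcript named for the *Hbb-b1* probes carries the symbol *Hbb-bt* in the RefSeq annotation of GRCm38.p6. Adult beta globin copies are closely alike, and binding of the *Hbb-b1* probes to transcripts of another copy was not tested. The array also held a probe for *Hba-a2*, the near-identical alpha gene. It overlapped the *Hba-a1* probe over 30 bases, of which 27 were the same, so alpha globin signals cannot be assigned to 1 gene with certainty.

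All values below are normalized log2 signals, in which a difference of 1 is a factor of 2. A probe's brightness also depends on its own letters, so signals were compared between pools for 1 probe and not ranked between genes.

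Among the embryonic chains, *Hba-x* read 15.91, 16.12, 15.7 and 16.22 in *Shh*-/- pools 1 to 4 and 16.87, 16.12 and 16.1 in wild-type pools 1, 3 and 4. Wild-type pool 1 stood above the rest, and the other wild-type pools lay inside the mutant range. The *Hba-x* signal was lower by -0.38 in the mutants (SE 0.21, 95% interval -0.86 to 0.11), which limma did not call (adjusted p = 0.847).

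*Hbb-y* read 17.02, 17.04, 16.38 and 16.91 in the mutant pools and 17.71, 16.76 and 16.88 in the wild-type pools. Mutant pool 3 was the lowest and wild-type pool 1 the highest. Its change was -0.28 (SE 0.25, 95% interval -0.85 to 0.29, limma adjusted p = 1).

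*Hbb-bh1* probe 2, the brighter of its pair, read 17.36, 17.25, 16.87 and 17.67 in the mutant pools and 17.9, 17.4 and 17.32 in the wild-type pools. The order ran from mutant pool 3 at the bottom to mutant pool 4 and wild-type pool 1 at the top. The array of mutant pool 3 had the highest median raw signal (145.3 units). Its probe 2 signal before normalization, 178686 units, was not the lowest (142225 in mutant pool 1). The part of array brightness in this order was not tested. Its change was -0.25 (SE 0.21, 95% interval -0.73 to 0.22), and that of probe 1 was -0.15 (limma adjusted p = 1 for both). Before normalization, the mean signal of probe 2 lay between 142225 and 195068 units, no spot was marked saturated, and the brightest spot of each array lay between 237638 and 434740.

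The alpha chain *Hba-a1* read 16.41, 16.49, 15.72 and 16.24 in the mutant pools and 17.17, 16.07 and 16.25 in the wild-type pools. Again mutant pool 3 was lowest and wild-type pool 1 highest. The *Hba-a1* change was -0.28 (SE 0.28, 95% interval -0.92 to 0.35, limma adjusted p = 1). Its neighbour *Hba-a2*, which is no member, differed by -0.31 (SE 0.31) and *Hbq1*, a theta-type globin, by -0.37 (SE 0.22).

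The adult beta chain *Hbb-b1* varied most from pool to pool among the members. Probe 4 read 12.63, 13.38, 11.48 and 12.46 in the mutant pools and 13.79, 11.45 and 13.19 in the wild-type pools. Wild-type pool 3 was the lowest and wild-type pool 1 the highest, so the wild-type pools spanned the whole range. The change of probe 4 was -0.32 (SE 0.57, 95% interval -1.61 to 0.97, limma adjusted p = 1). Probes 1, 2 and 3 differed by -0.37, -0.25 and -0.33.

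The 4 *Hbb-b1* probes did not follow each other exactly. The difference between probe 1 and probe 4 ran from -4 in wild-type pool 4 to -2.51 in wild-type pool 3, a range of 1.49. Probes 2 and 3 moved against probe 4 by ranges of 0.83 and 0.98. Wild-type pool 4 gave the extreme value in each case.

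**Figure D1:**
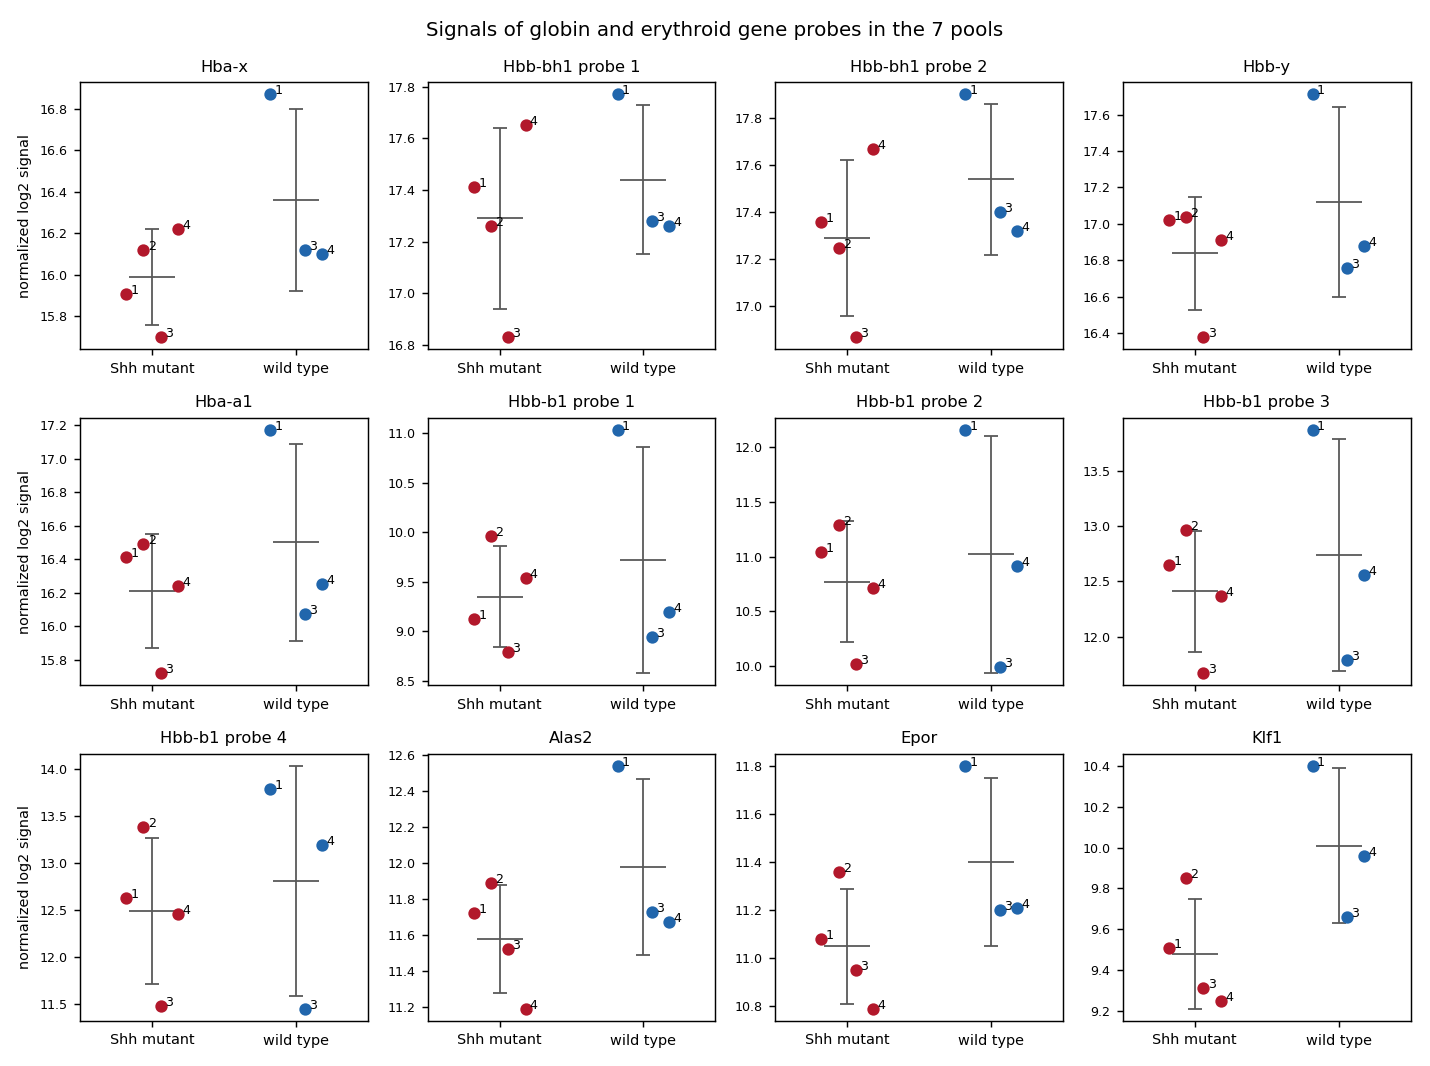
Normalized log2 signal (vertical axes, each with its own range) of the 12 member probes in 4 Shh mutant pools (red) and 3 wild-type pools (blue). Numbers beside the points name the pools, and grey bars show the mean and SD of each genotype. Wild-type pool 1 is the highest point in all 12 panels.

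The genes of red cell differentiation outside the globin loci showed a different order among the mutants. *Klf1* read 9.51, 9.85, 9.31 and 9.25 in the mutant pools and 10.4, 9.66 and 9.96 in the wild-type pools. Mutant pool 2 exceeded wild-type pool 3, so the genotypes overlapped. Its change was -0.53 (SE 0.2, 95% interval -0.99 to -0.06), a wild-type level 1.44 times the mutant level. The unadjusted limma p was 0.0304 and the adjusted p 0.503, and an exact two-sided permutation test over the 7 pools gave p = 0.0857, where the smallest possible value is 0.0286.

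*Alas2* read 11.72, 11.89, 11.52 and 11.19 in the mutant pools and 12.54, 11.73 and 11.67 in the wild-type pools. *Epor* read 11.08, 11.36, 10.95 and 10.79 against 11.8, 11.2 and 11.21. Both were lowest in mutant pool 4 and highest in wild-type pool 1, with the genotypes overlapping. The changes were -0.4 for *Alas2* (SE 0.24, 95% interval -0.95 to 0.15, limma adjusted p = 0.888) and -0.36 for *Epor* (SE 0.19, 95% interval -0.79 to 0.07, limma adjusted p = 0.794).

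Taking 1 probe a gene, none of the 8 member genes passed an adjusted p of 0.05 (0 of 8, beside 0.558% of the 23129 probes tested across the array). By brightest probe, 59 of 14896 genes were called lower and 58 higher. At an unadjusted p under 0.05 there was 1 member gene, *Klf1*. The array as a whole gave 7.96% of probes (9.1% of genes), and 3.99% of probes in the downward direction of *Klf1*. None had genotypes that did not overlap, against 8.34% of all probes, 3.56% of them lower in the mutants. All 8 changes were below 0, as were 44.6% of all probes and 40.5% of all genes by brightest probe. The members are used by the same cell type, however, and are not independent of each other. This shared direction depended on the scaling and on single pools. Without mutant pool 3, 7 of 8 genes were lower. *Hba-x*, *Hbb-bh1* probe 2, *Hbb-y*, *Hba-a1* and *Hbb-b1* probe 4 were then at -0.28, -0.12, -0.13, -0.12 and 0.01. *Alas2*, *Epor* and *Klf1* were at -0.38, -0.33 and -0.47. With the deposited normalized values set to 1 median per array, *Hba-x*, *Hbb-bh1*, *Hbb-y* and *Hba-a1* lay above 0 (0.12, 0.27, 0.25 and 0.22).

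Wild-type pool 1 was the highest of the 7 pools at 12 of 12 member probes, as it was at 16.5% of all 23027 tested probes with a value on every array. It exceeded the next pool by 0.12 to 1.07. Its array also had the lowest median raw signal (86.44 units, where the other arrays lay between 94 and 145.3) and the lowest normalized median (9.24 against 9.3 to 9.33), whose part in the result was not tested. Without it, 5 of 8 genes were lower in the mutants in place of 8. The change became -0.12 for *Hba-x*, -0.07 for *Hbb-bh1* probe 2, 0.02 for *Hbb-y*, 0.05 for *Hba-a1* and 0.17 for *Hbb-b1* probe 4. The values for *Alas2*, *Epor* and *Klf1* became -0.12, -0.16 and -0.33. In bulk tissue, fewer blood cells and less RNA per blood cell cannot be told apart.

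**Figure D2:**
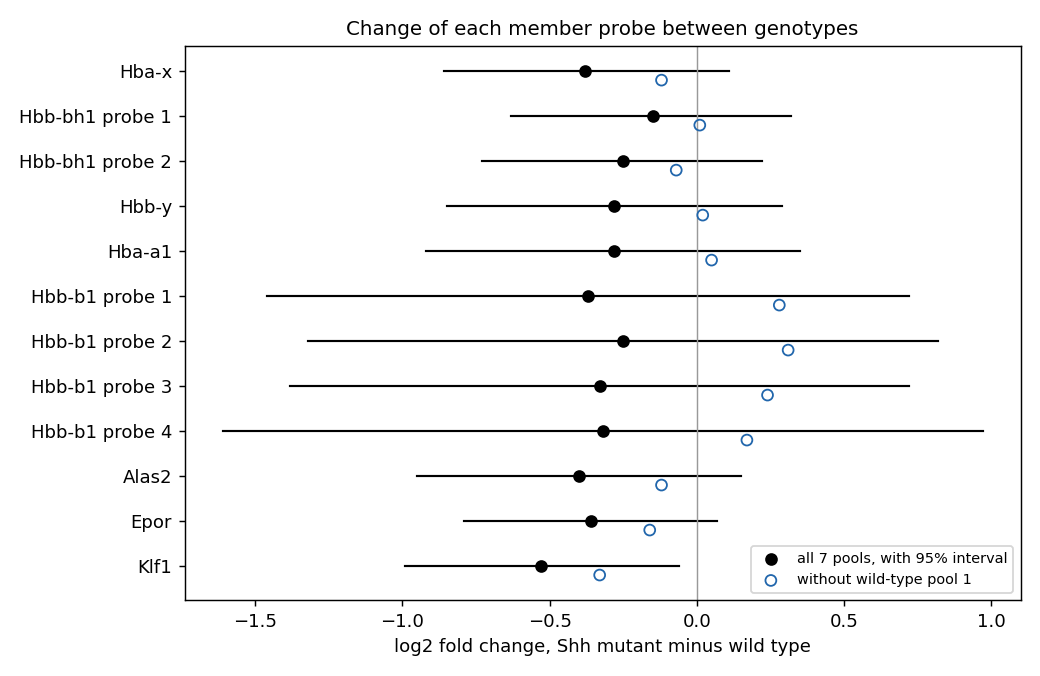
Log2 fold change, Shh mutant minus wild type (horizontal axis), for each of the 12 member probes. Black points use all 7 pools and carry 95% intervals from limma, and open blue circles leave out wild-type pool 1. Only the Klf1 interval lies wholly below 0, and the open circles of Hbb-bh1 probe 1, Hbb-y, Hba-a1 and the 4 Hbb-b1 probes lie above 0.

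The mutant and wild-type pools of equal number (1, 3 and 4) were hybridised on the same slide. The mutant array always took the first position, so position and genotype cannot be told apart. On slides 1, 3 and 4, mutant minus wild type was -0.97, -0.42 and 0.12 for *Hba-x*. It was -0.54, -0.53 and 0.35 for *Hbb-bh1* probe 2. For *Hbb-y* the differences were -0.68, -0.37 and 0.02. The embryonic globins were thus lower in the mutant on slides 1 and 3 and higher on slide 4. *Klf1* differed by -0.89, -0.34 and -0.7, *Alas2* by -0.82, -0.21 and -0.48, and *Epor* by -0.72, -0.25 and -0.41. These 3 genes were lower on all 3 slides, as were *Hba-a1* and *Hbb-b1* probe 3 among the globins and 11.5% of all tested probes. With slide as a block, where mutant pool 2 has no partner, *Klf1* was at -0.65 (limma adjusted p = 0.189) and no member was called. Leaving out mutant pool 2, whose label notes a possible leak during hybridization, left *Klf1* at -0.65 (limma adjusted p = 0.344) and *Hba-x* at -0.42 (limma adjusted p = 0.851).

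The embryonic and adult-type chains were then set against each other within each array, which removes what raises both log2 signals by the same amount. Only the movement of such a difference from pool to pool is informative, since its height depends on the 2 probes. Whether both probes of a pair respond alike was not tested. Before normalization, *Hbb-bh1* probe 2 ran from 142225 to 195068 units and *Hbb-b1* probe 4 from 3044 to 11482. *Hba-x* minus *Hba-a1* was -0.5, -0.37, -0.02 and -0.02 in the mutant pools and -0.3, 0.05 and -0.15 in the wild-type pools. The genotypes overlapped, with means of -0.23 ± 0.25 (SD, n = 4) and -0.13 ± 0.18 (SD, n = 3).

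*Hbb-bh1* minus *Hbb-b1* was 4.73, 3.87, 5.39 and 5.2 in the mutant pools and 4.11, 5.95 and 4.13 in the wild-type pools. The means were 4.8 ± 0.68 (SD, n = 4) and 4.73 ± 1.06 (SD, n = 3), a difference of 0.07. For *Hbb-y* minus *Hbb-b1* they were 4.35 ± 0.51 and 4.3 ± 0.87, with pools from 3.66 to 5.31. *Hbb-bh1* minus *Hbb-y*, a comparison within the embryonic beta chains, ran from 0.2 to 0.76 and averaged 0.45 ± 0.24 and 0.43 ± 0.22. Every one of these differences overlapped between genotypes, and the spread among pools exceeded the difference between genotype means.

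**Figure D3:**
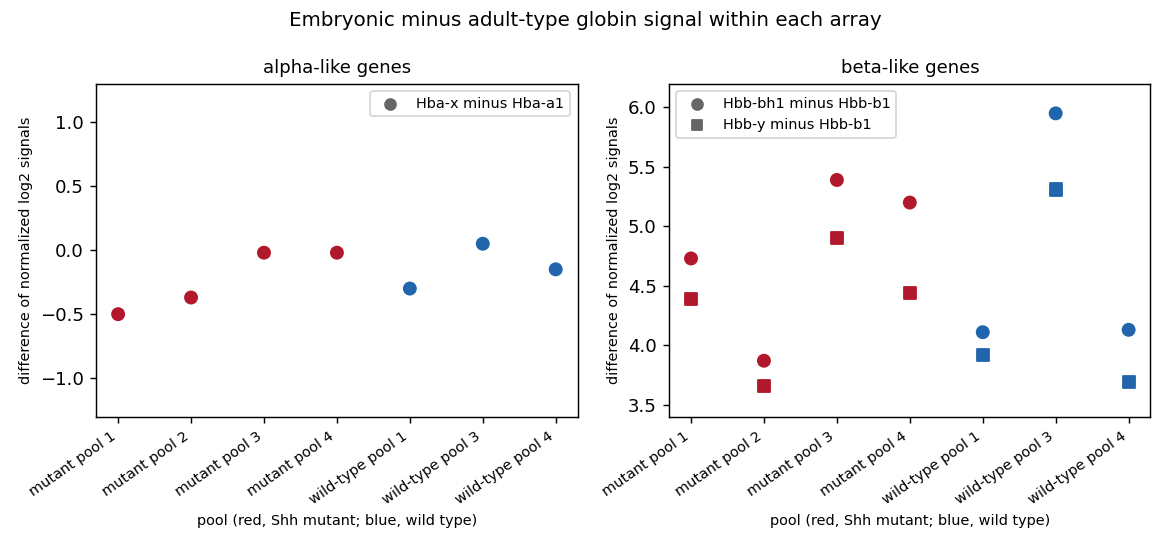
Embryonic minus adult-type globin signal (vertical axes, log2) in each pool (horizontal axes), for the alpha-like genes at left and the beta-like genes at right; red marks Shh mutant and blue wild-type pools. Both genotypes overlap in each comparison, and the beta-like values span 3.66 to 5.95.

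The spread between pools of 1 genotype was wide for these genes. The pooled SD was 0.32 to 0.41 for the embryonic globin probes, 0.46 for *Hba-a1*, 0.79 to 0.98 for *Hbb-b1*, 0.39 for *Alas2*, 0.29 for *Epor* and 0.32 for *Klf1*. The median over all tested probes was 0.19 and that of the brightest 1% of probes 0.28. Every member probe therefore exceeded the array's median, and between 77.2% and 99.8% of tested probes had a smaller SD. The 95th percentile of the brightest 1% was 0.38. *Hba-x* (0.33) and both *Hbb-bh1* probes (0.32) lay below it, and *Hbb-y* (0.41) and *Hba-a1* above it. The highest pool exceeded the lowest by a factor of 1.92 to 2.74 for the embryonic globins, *Hba-a1*, *Alas2*, *Epor* and *Klf1*, and by 4.45 to 5.06 for *Hbb-b1*. The median member SD was 1.9 times the median of all probes, and 1.5 times without wild-type pool 1. With the deposited values the ratio turned to 0.727, and setting these to 1 median per array gave 3.71.

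The globin probes' part of all raw signal gives a second reading of blood content, scaled only by each array's own summed signal. The 9 globin member probes gave 0.459%, 0.484%, 0.369% and 0.452% of the summed signal in mutant pools 1 to 4. They gave 0.685%, 0.452% and 0.498% in wild-type pools 1, 3 and 4. Wild-type pool 1 was again highest and mutant pool 3 lowest, and the genotypes overlapped. The place of mutant pool 3 depended on this division. Its undivided *Hba-x* signal was 79265 units, above the 51794 of mutant pool 1.

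Correlations over the 7 pools, each pool taken as its deviation from the genotype mean, describe which members moved together. All points share 7 arrays and wild-type pool 1 weighs on each of them, so no test was made. The globin probes correlated with each other at r between 0.53 and 1. *Hbb-y* and *Hba-a1* moved as one (r = 1). *Alas2* and *Epor* had r = 0.98, and *Epor* and *Klf1* 0.95. *Hbb-bh1* stood apart from these 3 genes, at 0.28 to 0.36.

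The 10 genes outside the members that most resembled the mean of the 3 embryonic globins were *Madd*, *1110059G10Rik*, *Nmnat1*, *Specc1*, *Ino80c*, *Olfr930*, *Morn4*, *2010110K18Rik*, *Rdh10* and *Tmem183a*, with r from 0.99 to 1 over 7 pools. None of them is on the red cell lists, and all were highest in wild-type pool 1. Their pooled SD ran from 0.08 (*Specc1*) to 0.36 (*Ino80c*). Among all tested probes, 454 (1.97%) had r above 0.9 and 112 (0.486%) had r above 0.95.

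The wider red cell programme was read from 6 lists of genes of heme synthesis, iron supply, transcription, red cell membrane, red cell cytoplasm, and erythropoietin and Kit signalling. Of 74 genes on the array 72 were tested, 43 lower and 29 higher in the mutants, with a median change of -0.08 against 0.03 for all 14896 genes. Without wild-type pool 1, 36 of the 72 were lower. None was called, and 12 (16.7%) had an unadjusted p under 0.05, beside 9.1% of all genes. The highest pool was wild-type pool 1 for 38 of the 72 (52.8%, beside 19.1% of all genes).

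Membrane and cytoplasm genes of mature red cells had the lowest medians of the 6 lists, and wild-type pool 1 set most of their size. Without that pool the membrane median went from -0.41 to -0.12 and the cytoplasm median from -0.35 to 0.05. Without mutant pool 4 these medians were -0.24 and -0.32. On the membrane list 14 of 18 genes were lower and the same number were highest in wild-type pool 1. *Rhag*, of the Rh complex, read 5.71, 5.89, 5.61 and 5.08 in the mutant pools and 7.33, 5.99 and 6.19 in the wild-type pools. Its genotypes did not overlap, as was so at 8.34% of all tested probes. Its change was -0.93 (SE 0.32, limma adjusted p = 0.386), or -0.52 without wild-type pool 1. The *Rhag* change was -0.56 with quantile normalization, -0.71 without background correction and -1.01 with scaling to the 75th percentile. *Slc4a1* (the band 3 anion exchanger) and *Spnb1* (erythroid beta spectrin) were at -0.65 and -0.58, and at -0.25 and -0.47 without wild-type pool 1. On the cytoplasm list 7 of 9 genes were lower, with *Trim10*, *Pklr* (red cell pyruvate kinase), *Blvrb* and *Hemgn* at -0.51, -0.48, -0.43 and -0.41. Without wild-type pool 1 these became -0.26, -0.25, -0.23 and 0.07.

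Heme synthesis genes moved little as a list (9 of 13 lower, median -0.06). Its 4 largest changes were *Slc25a37* (mitoferrin, which brings iron into mitochondria) at -0.55, *Cpox* at -0.27, *Fech* (ferrochelatase) at -0.26 and *Ppox* at -0.24, and the first 3 were at -0.18, -0.04 and -0.05 without wild-type pool 1. The iron list held 4 lower and 5 higher genes, with a median of 0.02. *Trf* (transferrin, which carries iron in plasma and is also made by liver cells) was at 0.76 (SE 0.22, limma adjusted p = 0.24) and *Slc40a1* (the iron exporter ferroportin) at 0.4 (SE 0.14, limma adjusted p = 0.4). Both were higher in all 4 mutant pools than in any wild-type pool, where 8.34% of all tested probes had genotypes without overlap. *Slc11a2* and *Tfrc*, which take up iron, were at -0.14 and -0.11.

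The transcription factor list was split evenly, 7 lower and 7 higher. *Gata1*, the master factor of red cells, read 6.55, 6.69, 6.74 and 6.67 in the mutant pools and 7.42, 6.94 and 7.12 in the wild-type pools. No mutant pool reached a wild-type pool. The change was -0.5 (SE 0.13, limma adjusted p = 0.207), and -0.37 without wild-type pool 1. Its exact permutation p was 0.0286, the smallest possible value. Among all tested probes, 8.34% had genotypes that did not overlap. The *Gata1* change was -0.36 with quantile normalization, -0.44 without background correction and -0.52 with scaling to the 75th percentile. Its partners *Tal1* and *Lmo2*, which blood vessel cells also use, were at -0.51 (SE 0.2, limma adjusted p = 0.493) and -0.43 (SE 0.13, limma adjusted p = 0.314), also without overlap. Without wild-type pool 1 they were at -0.27 and -0.48. *Sox6*, which silences embryonic globin in definitive red cells and acts in several other tissues, was at 0.45 by its brightest probe (SE 0.12, limma adjusted p = 0.201). At that probe all mutant pools lay above the wild-type pools. Further probes of *Sox6* were at 0.12 (SE 0.13) and 0.38 (SE 0.12). Among erythropoietin and Kit signalling genes, 2 of 9 were lower (median 0.12), led by *Pim1* at -0.27 and *Stat5a* at 0.26, with *Kitl* (the Kit ligand) at 0.21 and *Lyn* at 0.15, and *Epo* itself was too dim to test.

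**Figure D4:**
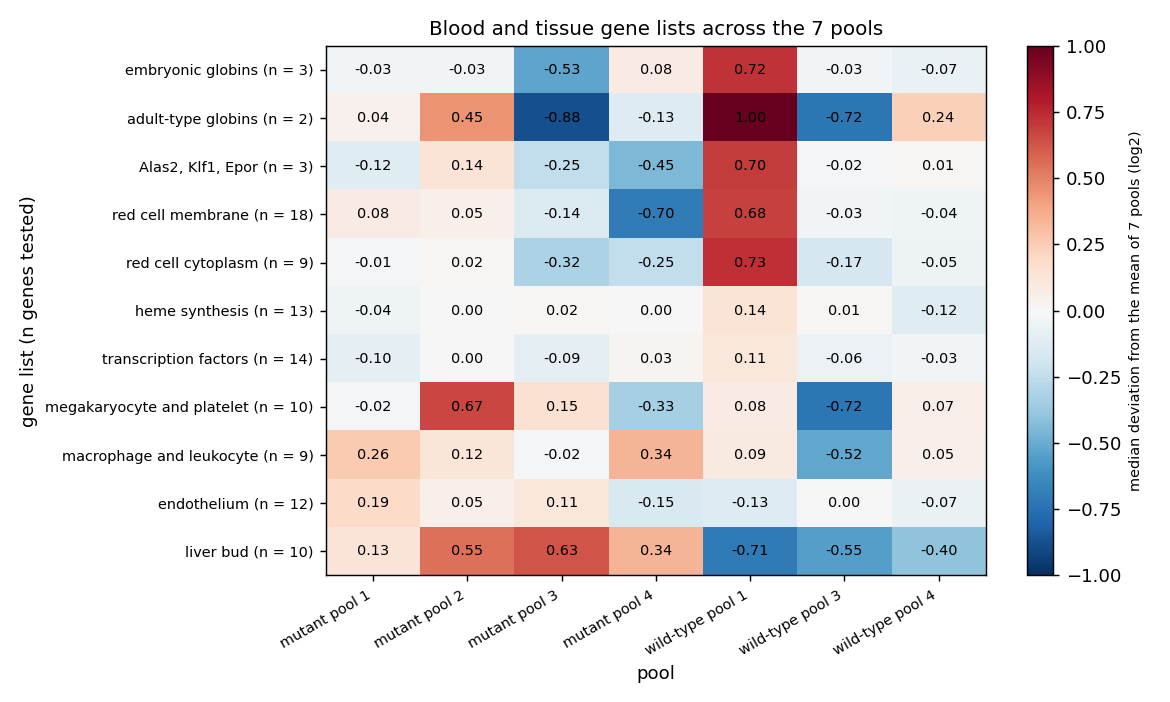
Median deviation from the mean of the 7 pools (colour and printed value, log2) over the tested genes of each list (rows) in each pool (columns). The column of wild-type pool 1 is highest for the globins, the red cell membrane (0.68) and the red cell cytoplasm (0.73), whereas the liver bud row divides by genotype. Mutant pool 4 is lowest for the red cell membrane (-0.7).

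Markers of other cells that blood or the dissected tissue could hold did not share this order. On the megakaryocyte and platelet list, 9 of 10 genes were higher in the mutants (median 0.36, none called), and the list's median deviation ran from -0.72 in wild-type pool 3 to 0.67 in mutant pool 2. *Ppbp* and *Pf4*, platelet chemokines, were at 0.68 and 0.53, with *Gp9* (a platelet receptor chain) at 0.51. Of the macrophage and leukocyte list 9 of 13 genes were bright enough to test, and 7 of these were higher (median 0.32, none called, *Lyz2* at 1, *Mrc1* at 0.73, *Tyrobp* at 0.71, *Fcer1g* at 0.35). Endothelial genes had a median of 0.06 over 12 genes, from -0.15 in mutant pool 4 to 0.19 in mutant pool 1, with *Tie1*, *Tek*, *Eng* and *Ramp2* at 0.36, 0.29, 0.23 and 0.18. No macrophage or leukocyte gene was highest in wild-type pool 1. Without wild-type pool 3 the macrophage and leukocyte median became -0.03, and the megakaryocyte median went from 0.36 to 0.08, or to 0.17 without mutant pool 2.

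Most genes of the liver bud, which lies beside the dissected foregut, moved by genotype. By brightest probe, all 10 on the list were higher in the mutants (median 0.92). The genotypes overlapped for *Afp*, which changed little at 0.17 (SE 0.16), and for *Apob* at 0.58 (SE 0.25). A further probe of *Hnf4a* was at -0.15 (SE 0.27), beside 0.84 for its brightest, and those of *Apob* were at 0.58 and 0.96. Of the 10 genes 5 were called, *Fga* at 1.45, *Alb* at 1.22, *Fgg* at 0.92, *Ttr* at 0.91 and *Fgb* at 0.82 (limma adjusted p = 0.0319 to 0.0495). *Ahsg* was at 1.61 (limma adjusted p = 0.0573). These calls were lost without mutant pool 2 or 3 or without any one of the wild-type pools (0 of 10 each), 1 was left without mutant pool 4, and 5 without mutant pool 1, and none was called with slide as a block. Scaling to the 75th percentile, the deposited values and omitting the filter on dim probes each left 0 calls, quantile normalization left 1 and omitting the background correction 2. The direction of the liver list was opposite to that of the red cell membrane list. Its part in the red cell values was not tested. Of 8 markers of the pSHF, the labelled tissue, all were bright enough to test. In the mutants 5 were lower and 3 higher (median -0.28, none called). *Isl1* was at -0.43, *Osr1* at -0.88, *Foxf1a* at -0.8 and *Tbx5* at -0.31. *Gata6*, higher in every mutant pool than in any wild-type pool, was at 0.26. Such changes between genotypes cannot show how much pSHF a pool held. *Shh* itself was lower in every mutant pool than in any wild-type pool, by -1.08 (SE 0.2, limma adjusted p = 0.0653, exact permutation p = 0.0286).

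The promoters of the members were read for the letters that red cell factors recognise. Of the 8 genes on the array 7 had a RefSeq promoter (GRCm38.p6), with *Hbb-bt* standing for *Hbb-b1*, and the 250 bases before the start were searched. The GATA motif was taken as GATAA or GATAG preceded by A or T and the CACCC motif, which Klf1 binds, as CCNCACCC, both on either strand. The motifs do not overlap in letters. GATA was found in 6 of 7 promoters, against 26.5% of 32851 RefSeq promoters, and CACCC in 3 (*Hbb-bt*, *Alas2* and *Epor*), against 14.9%. *Alas2* and *Epor* held both, as did 2.85% of all promoters. Presence of the letters is a description and not a binding site. An embryonic alpha-like, an embryonic beta-like and a heme gene are printed to show how they differ, with matches to either motif in capitals.

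Hba-x, chr11:32276350-32276599, plus strand: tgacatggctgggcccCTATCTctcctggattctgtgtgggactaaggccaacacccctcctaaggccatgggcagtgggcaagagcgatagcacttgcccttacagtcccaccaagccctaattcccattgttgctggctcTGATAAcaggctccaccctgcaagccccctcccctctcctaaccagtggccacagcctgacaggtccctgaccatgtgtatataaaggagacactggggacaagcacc
Hbb-y, chr7:103853208-103853457, minus strand: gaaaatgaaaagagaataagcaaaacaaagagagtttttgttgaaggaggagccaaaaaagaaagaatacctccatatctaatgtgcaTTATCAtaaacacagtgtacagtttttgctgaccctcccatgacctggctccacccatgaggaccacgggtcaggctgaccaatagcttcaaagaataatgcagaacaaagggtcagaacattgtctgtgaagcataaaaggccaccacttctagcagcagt
Alas2, chrX:150547167-150547416, plus strand: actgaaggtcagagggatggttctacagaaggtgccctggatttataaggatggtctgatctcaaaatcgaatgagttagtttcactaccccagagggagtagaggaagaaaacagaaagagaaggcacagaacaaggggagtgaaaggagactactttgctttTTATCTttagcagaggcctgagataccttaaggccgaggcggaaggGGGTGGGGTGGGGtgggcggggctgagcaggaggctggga

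In *Hba-x* there were 2 GATA matches and in *Hbb-y* 1, with no match to the full CCNCACCC in either window. The shorter letters CACCC did occur in both windows and were not counted. *Alas2* had 1 GATA match and 2 overlapping CACCC matches.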

How the data were processed

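RNA from 7 tissue pools was hybridised to 1-colour Agilent arrays. Per the file headers and the labels, the authors scanned 1 array per pool and read spots with Agilent Feature Extraction 10.5.1.1, and the deposited intensity values are mean, background and processed signals per spot, not scaled between arrays. The deposited log2 table holds the authors' normalized values. Its column medians run from 5.5 to 9.93, so its scale between arrays is unknown, and it was used only as an alternative.

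Mean signals were corrected with limma 3.58.1 (normexp on negative control spots, offset 50), scaled by variance stabilizing normalization (a reimplementation, trimming share 0.9, 7 iterations, 5 strata) and put on a log2 scale after outlier spots (155 to 206 an array) had been removed and spots of a probe averaged. Background and normalization can narrow the differences of dim probes. Arrays had 43379 spots, no saturated spot and 60% to 70.6% of probes above background. Their number limits the precision. A named probe was tested when all arrays of 1 genotype or more read it well above background (23129 probes, 14896 genes, each gene by its brightest probe), using lmFit and eBayes with all 7 arrays, genotype alone, and Benjamini-Hochberg adjustment over all tested probes. Steps were tested on simulated data, and R 4.3.3, python 3.11.15 and matplotlib 3.10.9 were used. A single probe's difference was also put to an exact two-sided permutation test over pools. The study's permutation-based method was not rebuilt.

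Replicate numbers mark a shared slide in the labels, so they pair the samples of slides 1, 3 and 4. Deviations from the genotype means correlated at 0.192, 0.238 and 0.033 within slides and at -0.22 to 0.187 between the 9 other pairs. The main fit had no block, as in the study's methods.

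Named genes were all members, *Shh*, the called genes and up to 4 largest changes of each list, and the 10 genes most like the embryonic globins. Some genes that this rule names are not reported here. The liver bud, megakaryocyte, macrophage, endothelial and pSHF lists checked other cell types. Members and lists were chosen with earlier results of these data known. Alternatives covered scaling, background, outlier spots, filters, slide, weights, variance trend and leaving out each pool. Genes too dim to test were *Steap3*, *Epo*, *Emr1*, *Cx3cr1*, *C1qa* and *Sfpi1*.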

Additional observations from a re-analysis of the deposited data

How the results depend on the processing

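No member gene was called at an adjusted p of 0.05 under any of the 19 alternatives. The count of probes called over the whole array was 129 and became 54 with scaling to the 75th percentile, 0 with the deposited values, 0 with those values set to 1 median per array (chosen after seeing the data), 33 without a filter on dim probes, 11 with the replicate block, 444 with array weights, and 12 to 136 with 1 pool left out. With the block, 4 members had an unadjusted p under 0.05, as with quantile normalization. The number of member genes lower in the mutants, 8, became 4 with the deposited values set to 1 median and 5 to 8 with 1 pool left out (5 without wild-type pool 1). Of the 72 wider red cell genes, the 43 lower became 71 with the deposited values and 28 with the interquartile range filter, which tests fewer genes, and 36 without wild-type pool 1. Array weights moved *Hbb-b1* probe 4 from -0.32 to 0.47. Members without overlap numbered 0, 1 with quantile normalization, and 0 to 2 with 1 pool left out (2 without mutant pool 2, 1 without wild-type pool 3). The ratio of the members' median SD to that of all probes, 1.9, was 0.727 with the deposited values and 3.71 once those were set to 1 median. *Shh* passed the threshold with the interquartile range filter (-1.08, adjusted p = 0.0354), slide as a random block (-1.08, 0.0459), array weights (-1.23, 0.0113) and a variance trend (-1.08, 0.0361) by limma, and ranged from -1.33 to -0.95 with 1 pool left out, passing without wild-type pool 4 (-1.33, adjusted p = 0.0448 by limma). Slide as a fixed block changed no call of a member or of *Shh* (adjusted p = 0.0947 by limma). The causes of these movements were not tested. With 4 and 3 pools, and member SDs above the array's median, small differences in blood content could not be resolved.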
